A study of Mus musculus with 3 samples.

Results

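The genes described here make, break down or read retinoic acid: the retinaldehyde dehydrogenases Aldh1a1, Aldh1a2 and Aldh1a3, the retinoic acid hydroxylase Cyp26b1, the retinoic acid receptors Rara, Rarb and Rarg, and the retinoid X receptors Rxra, Rxrb and Rxrg. They are 10 of the 35591 genes or unnamed targets that the array measures. Every non-control probe was taken whose RefSeq accession, or whose gene name in the authors' deposited table, belongs to one of them, which gave 15 of 55681 probes. The accession named 14 of these, and 1, the last of 3 Rarb probes, is named only in that table. Since the authors' deposited table leaves out probes with an unadjusted p-value above 0.458, whether it names a probe depends in part on the probe's own result. The genes were put together with results of these same arrays known, so their ratios are a description and carry no p-value here.

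The study used 3 two-colour Agilent arrays to compare dorsal cortex RNA between pups of mice 4 days after birth. On each array the labels put 1 Brpf1-deficient pup in the Cy5 channel and 1 wild-type pup in the Cy3 channel, both untreated, with 350 ng of total RNA amplified once before labelling. Brpf1 is the scaffold subunit of histone acetyltransferase complexes. The sources used here give neither the allele, any Cre driver, the sex nor the litters of the pups, so p-values cover no more than these 3 pairs. They do not measure the spread between the pairs alone, because limma draws the variance of each probe toward that of all probes. A probe whose ratios differ widely between arrays can pass for that reason. With no dye swap a dye effect and a genotype effect cannot be told apart.

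The targeted gene went against its label. The Brpf1 probe was brighter in the Cy5 channel, labelled Brpf1-deficient, on all 3 arrays, with log2 ratios of 0.63, 0.73 and 0.96 (mean 0.77 ± 0.17, SD, n = 3). The sources used here do not say whether the probe's target lies inside the deletion. The fold changes in the authors' deposited table ran the other way from Cy5 over Cy3: across 23924 probes the correlation was -0.938, and all 5557 probes called here and listed there had the opposite sign. Levels are therefore given for the library labelled Brpf1-deficient (Cy5) and the library labelled wild type (Cy3), every ratio is Cy5 over Cy3, and which genotype a direction belongs to is not settled.

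Retinoic acid is made from vitamin A in a pair of oxidation steps, and the ALDH1A enzymes carry out the second of them, from retinaldehyde to retinoic acid. CYP26 enzymes hydroxylate retinoic acid and so limit where it acts. It binds retinoic acid receptors (RARs), which sit on DNA as heterodimers with retinoid X receptors (RXRs). In the young forebrain the meninges are a known source of retinoic acid through ALDH1A2, and Rarb and Rxrg are known for their strong expression in the striatum, which lies beneath the cortex.

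The scanner called 57.9% to 58.2% of 59305 non-control spots on each array well above background in Cy5, and 59.9% to 61.0% in Cy3. No spot was saturated, and the files give 1 slide and 1 scan. The ratios of the arrays correlated across probes at 0.485 to 0.703 (probes are not independent replicates), and array 2 was the one less like the other two. After the filter on dim probes 32983 probes were tested, of which 5557 (16.8%) had a limma adjusted p below 0.05. That count was 2195 without array 3. Of the calls 44.4% were brighter in Cy5, and 80.4% were when arrays were centred on their median in place of loess.

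Of the 15 retinoic acid probes 14 passed the filter. The second Rxra probe was not well above background in either channel on any array and is not described further. The library labelled Brpf1-deficient was brighter for 7 probes of 4 genes (Aldh1a1, Cyp26b1, Rarb and Rxrg) and dimmer for 1 probe, that of Aldh1a3. These 8 passed the threshold that 16.8% of all probes passed (7.48% brighter in Cy5, 9.37% brighter in Cy3), and since the genes were chosen on this contrast nothing is read from their number. The other 6 probes, of Aldh1a2, Rara, Rarg, Rxra and Rxrb, did not pass and had mean log2 ratios between -0.10 and 0.15. In bulk tissue, fewer cells of a type and less RNA per cell cannot be told apart.

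**Figure D1:**
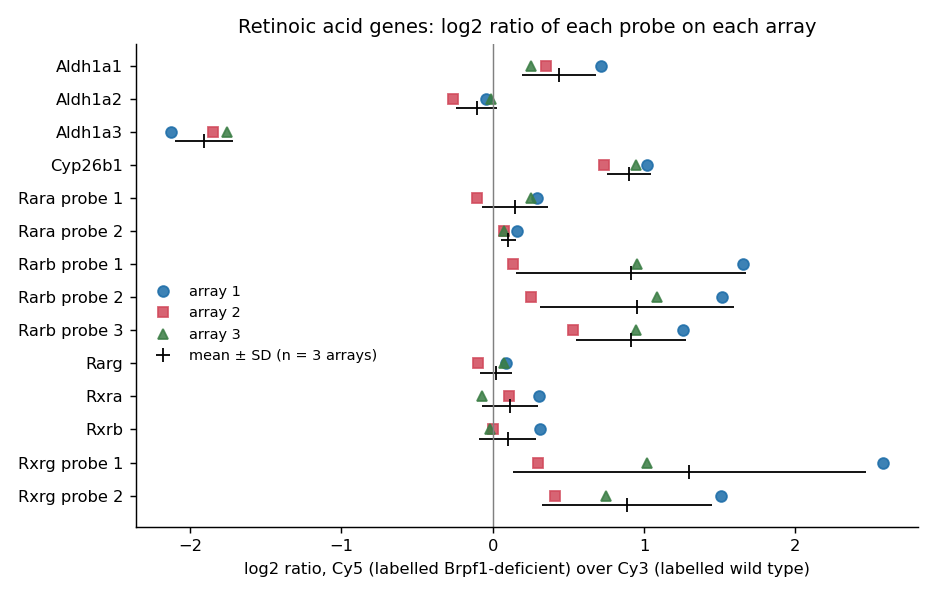
Log2 ratio of Cy5 (labelled Brpf1-deficient) over Cy3 (labelled wild type) on the x axis for each of the 14 probes, with 1 point per array and the mean ± SD over 3 arrays below. Aldh1a3 lies far to the left on all 3 arrays, Cyp26b1 lies tightly around 0.90, and the Rarb and Rxrg probes lie to the right but are spread widely, with array 1 highest and array 2 lowest.

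Among the enzymes that make retinoic acid, Aldh1a3, which is known in the forebrain from the lateral ganglionic eminence, had the largest ratio in size of the 14 probes. Its log2 level was 9.23, 9.50 and 9.51 on arrays 1, 2 and 3 in the library labelled Brpf1-deficient, against 11.35, 11.34 and 11.27 in the library labelled wild type. All Cy5 levels lay far below all Cy3 levels, and in Cy3 they differed by only 0.08 between arrays. The log2 ratios were -2.12, -1.85 and -1.76 (mean -1.91 ± 0.19, SD, n = 3), so the probe was 3.75-fold brighter in Cy3. Only 16 of the 32983 probes had a lower ratio. The ratio stayed between -2.15 and -1.80 in the 12 other settings tried.

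Aldh1a1 codes for a related dehydrogenase that neurons of the midbrain are known to use. Its log2 level was 10.93, 10.53 and 10.66 in the library labelled Brpf1-deficient, against 10.22, 10.18 and 10.41 in the library labelled wild type. Levels did not overlap between channels, as was the case for 36.0% of all probes and for 9 of these 14, but the gap was narrow on array 3. The ratios were 0.71, 0.35 and 0.25 (mean 0.44 ± 0.24, a 1.36-fold difference), and the probe no longer passed the threshold with the scanner's processed signals (0.49). Aldh1a7 is a close paralog, so the 2 probes may share target RNA; its own probe had ratios of 0.32, 0.26 and -0.11 and did not pass (mean 0.16, limma adjusted p = 0.272).

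Aldh1a2, the enzyme of the meninges, had log2 levels of 11.17, 10.98 and 11.17 in the library labelled Brpf1-deficient, against 11.21, 11.23 and 11.18 in the library labelled wild type. The channels were nearly level on arrays 1 and 3 and Cy5 was dimmer on array 2 (ratios -0.04, -0.26 and -0.01, mean -0.10 ± 0.13). The meningeal markers, which include the collagen genes Col1a1 and Col3a1 and Ogn, had a median ratio of -0.13, and 0 of their 11 probes passed the threshold. The 3 synthesis enzymes thus stood in 3 different places: Aldh1a1 brighter in Cy5, Aldh1a3 brighter in Cy3, and Aldh1a2 not past the threshold.

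Cyp26b1, the main retinoic acid hydroxylase of the developing brain, was brighter in the library labelled Brpf1-deficient on every array. Its log2 level was 12.91, 12.72 and 12.75 in that library, against 11.89, 11.99 and 11.80 in the library labelled wild type. Both channels were steady over arrays, with ranges of 0.19 and 0.18, and they did not overlap. The ratios were 1.02, 0.74 and 0.95 (mean 0.90 ± 0.15, a 1.87-fold difference), and 98 of the 32983 probes had a higher one. Of the retinoic acid probes, Aldh1a3 and Cyp26b1 were the 2 that kept their call in all 12 other settings. Those settings refit the arrays whose results were known when the genes were chosen. A kept call therefore describes how little it depends on the processing and is no separate evidence for a difference.

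Of the retinoic acid receptors, Rarb was brighter in the library labelled Brpf1-deficient, and Rara and Rarg did not pass the threshold. Rarb is itself a textbook retinoic acid target, through a response element made of a direct repeat of the receptor's binding site in its promoter. Windows from 250 bases before to 50 after a gene's start were available from RefSeq (GRCm38.p6) for 9 of the 10 genes (not Aldh1a3), 17 windows in all. Both strands were searched for 4 such repeats, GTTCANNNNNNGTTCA, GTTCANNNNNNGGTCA, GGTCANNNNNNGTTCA and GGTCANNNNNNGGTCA, which exclude one another at any given position. Of these 17 windows 1, of Rarb, held a match, against 81 of 32851 windows (0.247%) over all genes. The match ran from base -52 to base -37 relative to the start, on the gene's strand, and is in capitals in the first sequence below. It is shown with the windows of Rxrg and Cyp26b1, the other genes with a mean ratio of 0.89 or more, each printed as the 150 bases before the start, none of which held a match; a match or its absence is a description of these letters only.

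Rarb, chr14:16575477-16575626, minus strand: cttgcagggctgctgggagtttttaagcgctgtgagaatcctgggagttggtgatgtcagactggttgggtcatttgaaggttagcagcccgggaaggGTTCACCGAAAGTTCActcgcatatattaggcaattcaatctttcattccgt
Cyp26b1, chr6:84593811-84593960, minus strand: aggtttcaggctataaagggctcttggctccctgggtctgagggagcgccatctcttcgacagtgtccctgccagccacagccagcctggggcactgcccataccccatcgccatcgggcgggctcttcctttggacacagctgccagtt
Rxrg, chr1:167598212-167598361, plus strand: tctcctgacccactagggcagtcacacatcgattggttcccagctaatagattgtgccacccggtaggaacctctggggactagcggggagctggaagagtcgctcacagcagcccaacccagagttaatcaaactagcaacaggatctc
Rxrg, chr1:167618115-167618264, plus strand: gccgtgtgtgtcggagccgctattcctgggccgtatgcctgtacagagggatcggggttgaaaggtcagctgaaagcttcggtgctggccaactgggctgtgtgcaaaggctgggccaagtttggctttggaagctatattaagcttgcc

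The first Rarb probe had log2 levels of 12.78, 12.67 and 12.96 in the library labelled Brpf1-deficient, against 11.12, 12.53 and 12.01 in the library labelled wild type. Cy5 was level over arrays, and Cy3 was far lower on array 1 than on array 2, where the channels nearly met. The ratios were 1.65, 0.14 and 0.96 (mean 0.92 ± 0.76, SD, n = 3). The second probe had 11.52, 11.55 and 11.83 in Cy5 against 10.01, 11.30 and 10.75 in Cy3, with ratios of 1.51, 0.25 and 1.08 (mean 0.95 ± 0.64). The probe named only in the table was dimmer and had 8.91, 8.97 and 9.11 in Cy5 against 7.65, 8.44 and 8.16 in Cy3, with ratios of 1.26, 0.53 and 0.95 (mean 0.91 ± 0.37). The 3 probes gave almost the same mean, 1.88- to 1.93-fold, and the same order of arrays; they read the same RNA and are not replicates. Without array 1 the mean of the first probe was 0.55 and that of the second 0.67, so both lost their call, and without array 3 the first probe also lost it (0.90).

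Rara, the receptor found in most tissues, was measured by 2 probes. The brighter one had log2 levels of 11.62, 11.44 and 11.49 in the library labelled Brpf1-deficient, against 11.46, 11.36 and 11.41 in the library labelled wild type (mean ratio 0.10 ± 0.05). The dimmer one had a mean ratio of 0.15 ± 0.22. Rarg, known mainly from skin and cartilage, had levels of 8.70, 8.73 and 8.68 in Cy5 and 8.61, 8.83 and 8.60 in Cy3 (mean ratio 0.02 ± 0.10), and its channels overlapped.

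Rxrg was the brightest in Cy5 relative to Cy3 of the retinoid X receptors. Its first probe had log2 levels of 13.82, 13.51 and 13.72 in the library labelled Brpf1-deficient, against 11.24, 13.20 and 12.70 in the library labelled wild type. As for Rarb, the Cy5 levels lay close together and the Cy3 level was lowest on array 1 and highest on array 2. The ratios were 2.58, 0.30 and 1.02 (mean 1.30 ± 1.16, a 2.46-fold difference), and 20 of the 32983 probes had a higher mean. The second probe had 12.58, 12.49 and 12.63 in Cy5 against 11.07, 12.07 and 11.88 in Cy3 (ratios 1.51, 0.41 and 0.75, mean 0.89 ± 0.56). Without array 1 the means were 0.66 and 0.58. The first probe's call was lost with an intensity trend and robust variances.

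Rxra and Rxrb, the RXRs of broader expression, did not pass the threshold. Rxrb, bright on the array, had log2 levels of 14.28, 13.95 and 13.90 in the library labelled Brpf1-deficient, against 13.97, 13.95 and 13.92 in the library labelled wild type. The channels were within 0.02 of each other on arrays 2 and 3 and parted on array 1 (mean ratio 0.10 ± 0.19). With arrays centred on their median the Rxrb ratio was 0.32 and passed. Rxra, near the lower end of the measured levels, had 7.73, 7.15 and 7.11 in Cy5 against 7.42, 7.04 and 7.18 in Cy3 (mean ratio 0.12 ± 0.19).

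**Figure D2:**
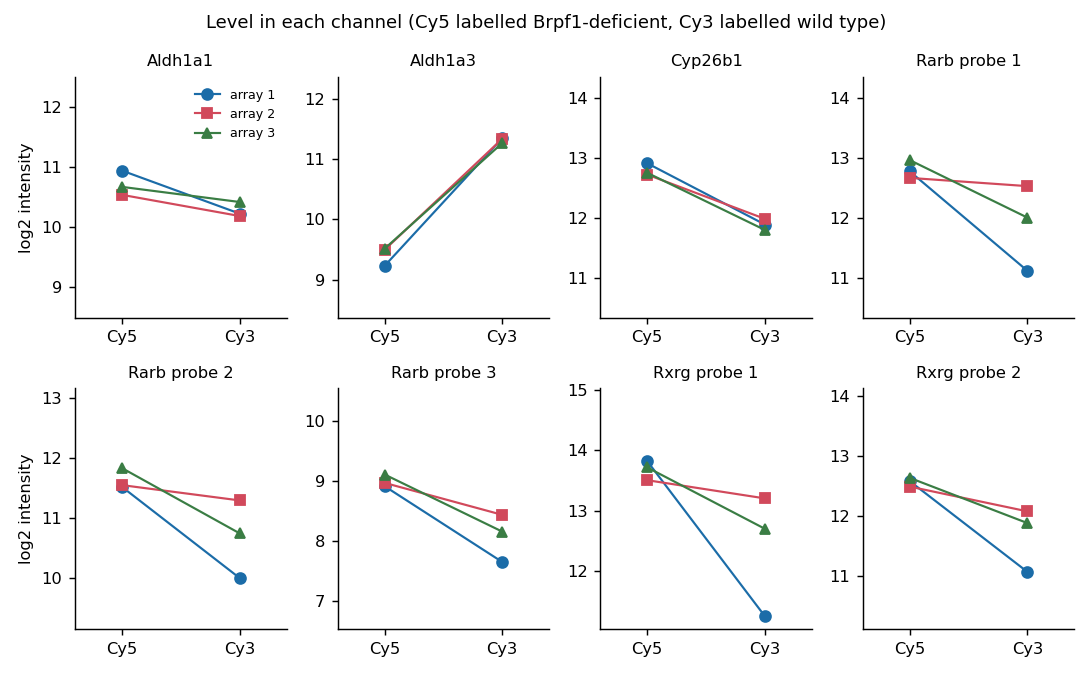
Log2 intensity after loess and between-array scaling on the y axis, in Cy5 (labelled Brpf1-deficient, left) and Cy3 (labelled wild type, right), for the 8 probes past the threshold, with 1 line per array. Lines of Aldh1a3 and Cyp26b1 run together; those of Rarb and Rxrg start together in Cy5 and spread in Cy3, where array 1 is lowest and array 2 highest.

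For Rarb and Rxrg, the arrays differed mostly in the channel labelled wild type. For the first Rarb probe the range over arrays was 0.30 in Cy5 and 1.41 in Cy3, and for the first Rxrg probe it was 0.32 in Cy5 and 1.96 in Cy3. Over all probes tested the median range was 0.25 in Cy5 and 0.17 in Cy3, and the Cy3 ranges of these 2 probes stood at the 99.6 and 99.9 percentile. The other Rarb and Rxrg probes showed the same, with Cy5 ranges of 0.31, 0.19 and 0.14 and Cy3 ranges of 1.29, 0.78 and 1.01.

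Markers of the striatum moved in the same way. The list holds 12 genes, among them Penk, the precursor of enkephalin, Adora2a, the adenosine receptor of indirect-pathway neurons, and Ebf1, a transcription factor. Of its 17 probes 16 passed the filter, each well above background in both channels on all 3 arrays. All 16 had a mean ratio above 0, and 7 passed the threshold, brighter in Cy5, as did 7.48% of all probes tested. Their median ratio was 0.81, 0.15 and 0.50 on arrays 1, 2 and 3. The log2 of their summed level was 16.50, 16.49 and 16.61 in the library labelled Brpf1-deficient, a range of 0.13, against 15.42, 16.28 and 15.80 in the library labelled wild type, a range of 0.86. As for Rarb and Rxrg, the Cy3 sum was lowest on array 1 and highest on array 2. The part of striatal RNA in the Rarb and Rxrg ratios was not tested.

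Cyp26b1 and Aldh1a3 had no such order in Cy3. The Cyp26b1 probe was also highest in Cy3 on array 2, and its ratios (1.02, 0.74 and 0.95) had the order of Rarb and Rxrg, with smaller differences. The dorsal cortex markers, which check the labelled tissue, were bright in both channels, with a log2 sum between 17.36 and 17.41 in Cy5 and between 17.26 and 17.40 in Cy3. Of their 12 probes 10 had a mean ratio above 0, and the list's median was 0.24. Past the threshold, 5 were brighter in Cy5, Lhx2 (0.44) and Tbr1 (0.48) among them, and 1, Neurod6 (-0.38), in Cy3. The shares of all probes tested were 7.48% and 9.37%. The Emx1 probe, picked out after its values were seen, had ratios of 0.65, -2.72 and -2.65, so array 1 stood apart from the other arrays (mean -1.58 ± 1.92, well above background in Cy5 on 2 of 3 arrays, not called).

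Markers of the other tissues that the dissection could hold were read in the same way. Of all probes tested 7.48% were called brighter in Cy5 and 9.37% in Cy3, against which the counts below stand. Of 11 endothelial probes 2 (of Kdr and Cldn5) were brighter in Cy5, and the list's median was 0.12. Another Kdr probe had 0.08 and did not pass. Of 10 interneuron probes 2 were brighter in Cy5, Npy at 0.83 and Sst at 0.41, and 2 in Cy3, Dlx1 at -0.56 among them. Of 11 thalamic probes 2 were brighter in Cy5, both of Prkcd (0.53 and 0.43), and 6 in Cy3, with Slc17a6 at -0.83. None of the 8 choroid plexus probes passed (Clic6, with the smallest adjusted p, had 0.27), and the Cy5 over Cy3 ratio of their sums was 0.27, 2.11 and 1.07. These sums largely follow Ttr, by far the brightest probe of that list and picked out after its values were seen. Its log2 ratios were -2.60, 1.13 and 0.10 on arrays 1, 2 and 3, and the list's median log2 ratios were -0.27, 0.55 and 0.13. Of these lists and that of the meninges, the interneuron list also had its lowest Cy3 sum on array 1 and its highest on array 2, with a range of 0.07 on the log2 scale, and the others had another order.

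**Figure D3:**
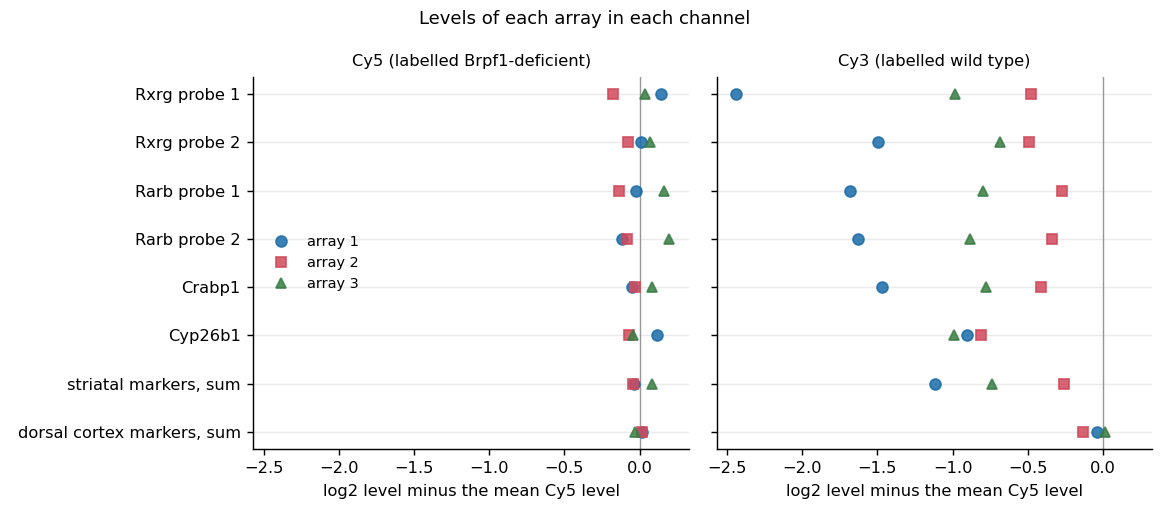
Log2 level on each array minus the mean Cy5 level of the same probe or marker sum (x axis), in Cy5 (labelled Brpf1-deficient, left panel) and Cy3 (labelled wild type, right panel). The rows are 6 probes and 2 marker sums; the choroid plexus sum and the other lists are not plotted. In Cy5 all plotted points lie near 0; in Cy3 the Rxrg, Rarb, Crabp1 and striatal points run from array 1, the lowest, to array 2, the highest, while Cyp26b1 and the dorsal cortex sum keep together.

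The rest of the retinoid pathway was read through a list of 77 genes for carriers, dehydrogenases, hydroxylases, RXR partners, coregulators and known targets. The array held 75 of them, and 84 of their 102 probes, of 60 genes, passed the filter. Of the 84, 6 were brighter in Cy5 and 7 in Cy3 with a limma adjusted p below 0.05. That is 15.5%, near the 16.8% of all probes, and the median ratio was 0.01, against -0.01 for all probes. With arrays centred on their median the split was 13 brighter in Cy5 and 2 in Cy3. Without array 3 there were 6 calls.

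Crabp1, which codes for a cytosolic carrier of retinoic acid, was the carrier with the highest ratio. Its log2 level was 12.48, 12.50 and 12.61 in the library labelled Brpf1-deficient, against 11.07, 12.12 and 11.76 in the library labelled wild type, the order over arrays of Rarb and Rxrg. The ratios were 1.42, 0.38 and 0.85 (mean 0.88 ± 0.52, limma adjusted p = 0.0194), and with the scanner's processed signals the call was lost. Rbp3, the retinoid-binding protein of the retina, was also brighter in Cy5 (0.69 ± 0.21, limma adjusted p = 0.00825). Crabp2, the carrier that hands retinoic acid to the receptors, had a mean of 0.31 (limma adjusted p = 0.083). Stra6, a retinol transporter, had -0.02 and did not pass.

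The first oxidation step did not pass the threshold. Rdh10, the main retinol dehydrogenase of the embryo, had a mean ratio of 0.08, and Dhrs3, a retinaldehyde reductase that is a known retinoic acid target, had 0.15. Of the 17 probes for synthesis and reduction 1 passed, that of Rlbp1, a retinaldehyde-binding protein of the eye, brighter in Cy3 (-0.36 ± 0.08, limma adjusted p = 0.022). Its call was lost without array 3, with median centring and with the processed signals.

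Cyp26a1, the other hydroxylase that passed the filter and a well-known retinoic acid target, had a mean ratio of the opposite sign from Cyp26b1. In Cy5 the probe was on no array well above background. It passed the filter only through Cy3, the channel in which it was brighter, so its call is no separate support for that direction. With the main background correction it was 1.45-fold brighter in the library labelled wild type (mean log2 ratio -0.53 ± 0.33, limma adjusted p = 0.0293). A lower bound was sought by setting the Cy3 mean against the higher, per array, of 2 Cy5 levels. These were the dim probe's own level and the lowest level well above background. The dim probe's own level was the higher one on all arrays. The bound therefore equals the fitted fold, moves with the background correction and is no firm minimum. Without background subtraction the mean ratio was -0.35 and with the processed signals it was -1.29, and the call was lost in both.

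Of the RXR partners Pparg (0.39 ± 0.08) and Nr1h4 (0.25 ± 0.05), nuclear receptors for fatty acids and bile acids, were brighter in Cy5 (limma adjusted p = 0.018 and 0.047), and 15 of 17 probes did not pass. Nr1h4 was well above background on all 3 arrays in Cy5 but on 1 of 3 in Cy3. It thus passed the filter only through Cy5, the channel in which it was brighter. Its call is therefore no separate support for that direction. Among the coregulators 4 of 26 probes passed, each brighter in Cy3. Of all probes tested 16.8% passed, and 9.37% were brighter in Cy3, so nothing is read from this count. Nrip1, a ligand-dependent corepressor, was dimmer in the library labelled Brpf1-deficient in 2 probes, 1 of them named only in the authors' deposited table (-0.35 ± 0.18 and -0.76 ± 0.29, limma adjusted p = 0.0359 and 0.0101). Ncoa2, a coactivator, had -0.43 ± 0.10 (limma adjusted p = 0.015), and its call was lost with median centring (-0.30) and with the processed signals (-0.37). Zfp423, a zinc finger cofactor, had -0.30 ± 0.06 in 1 probe (limma adjusted p = 0.032), while its other probes had -0.09 and -0.00 and did not pass.

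The list of known targets, which shares genes such as Nrip1, Cyp26a1, Crabp2 and Dhrs3 with the lists above, went both ways. Of its 18 probes 2 were brighter in Cy5 and 4 in Cy3, beside 7.48% and 9.37% of all probes tested. Rarres1, a gene named for its response to retinoids in skin, had a mean of 0.62 ± 0.12 (limma adjusted p = 0.00614) and kept its call in all 12 other settings. Meis2, a homeobox factor of the striatum, had 0.38 ± 0.27 (limma adjusted p = 0.049) and kept its call in 6 of 12 other settings, losing it without array 1, without array 3, with 1 probe per gene, and under each of the other 3 background corrections. Rai2, a gene named as induced by retinoic acid, had -0.29 ± 0.08 (limma adjusted p = 0.039) and lost its call without any 1 of the 3 arrays, with median centring and with the processed signals. Of the RXR partners above, Nr1h4 lost its call without array 2, without array 3, with median centring, without background subtraction and with no filter, and Pparg lost it without array 3. Of the coregulators, Zfp423 lost its call without array 2 and without array 3, the first Nrip1 probe without array 1 and without array 3, and both with median centring and with the processed signals.

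**Figure D4:**
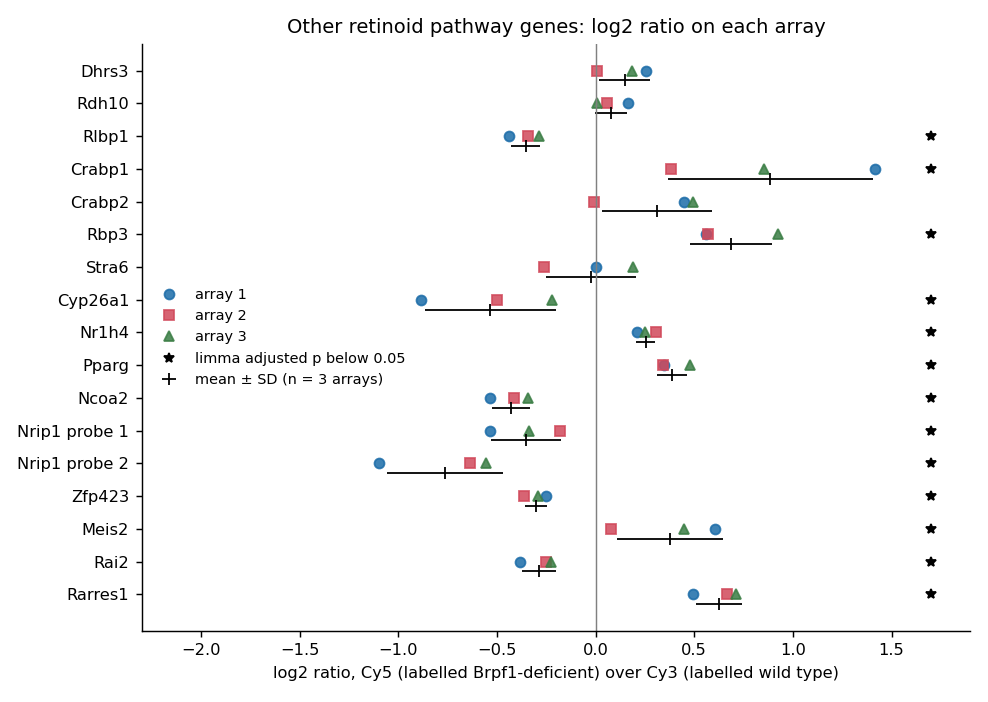
Log2 ratio of Cy5 (labelled Brpf1-deficient) over Cy3 (labelled wild type) on the x axis, with 1 point per array and the mean ± SD over 3 arrays. A star at the right marks a limma adjusted p below 0.05. The rows are the retinoid pathway probes past the threshold and those of Rdh10, Crabp2, Dhrs3 and Stra6. Other probes of the list, Ttr among them, are not plotted. Of the plotted probes Crabp1 has the widest spread over arrays, and called probes lie on both sides of 0.

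For each retinoic acid probe with a mean ratio of at least 0.5 in size, the named probes of other genes with the nearest 3 array ratios were listed by the root mean square difference over the 3 arrays, among 22972 to 22974 named probes. Nearest to Aldh1a3 were Onecut1 (0.12), Cdkn2b (0.18), Lhx4 (0.20), Pax1 (0.23) and Hoxd9 (0.24). Nearest to Cyp26b1 were Lynx1 (0.037), Pantr1, Itgb3, Cckbr and Tcfl5 (0.074). For the first Rarb probe they were AI606473 (0.030), Slc35d3, Arpp21, Strip2 and Lhx8, for the second Pcp4l1, AI606473, Arpp21, Penk and Crabp1, and for the one named only in the table Stac2, Cxcl14, Pdyn, Syt6 and Inf2. Rxrg's first probe, whose pattern is rarer, had Ppp1r1b (0.25), Gm1987, Nexn, Strip2 and Rarb itself (0.54) nearest, and its second probe had Ccdc153, Crabp1, Tmem212, Syt6 and Pcp4l1. Penk and Ppp1r1b are also on the striatal marker list. With 3 values per probe and all ratios from the same arrays, these are descriptions of likeness only.

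The authors' deposited table lists 13 of the 15 probes, all with the opposite sign from Cy5 over Cy3. It gives Aldh1a3 a log2 fold change of 2.06, Cyp26b1 -0.92, the first Rxrg probe -1.32 and the dimmest Rarb probe -1.28. In the authors' deposited table their adjusted p-values run from 0.192 to 0.639, so 0 of the 13 are below 0.05 there, while 8 of the 14 retinoic acid probes fitted here were past the threshold. In size the values of the authors' deposited table differ little from those given here for Aldh1a3, Cyp26b1 and Rxrg, and are larger for the dimmest Rarb probe.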

How the data were processed

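RNA of 3 pairs of pups was hybridised to 3 two-colour arrays. The deposited scanner files hold median spot and background intensity per channel, with Agilent Feature Extraction 10.7.3.1 per the file headers, and the scanner software's processed signals, used as an alternative. The log10 ratio of red over green in the deposited files was not used. The authors' deposited gene table holds log2 fold changes, p-values, adjusted p-values and 2 score columns (a moderated t and log odds, not used); limma is named without a version per the submitters' processing notes, and the sources used here give no other step.

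From the intensities, limma 3.58.1 (R 4.3.3) applied normexp with an offset of 50, which shrinks the ratios of dim probes, and loess within arrays with control spots at weight 0; outlier spots were left out and spots of a probe averaged. Channel levels were then scaled between arrays (Aquantile). A probe was kept if at least 2 arrays showed it well above background in 1 channel or both. The log2 ratios were tested against 0 with eBayes, two-sided, and adjusted by Benjamini-Hochberg over all 32983 probes kept, at 0.05. The fit was tested on simulated data. RefSeq accessions named 27656 probes, 4049 more were named by the authors' deposited table, and 23976 stayed unnamed. Named are all 10 genes, pathway genes past the threshold (at most 12) with Rdh10, Crabp1, Crabp2, Dhrs3, Cyp26a1 and Stra6 whatever their values (a further gene of that rule is not reported here), the 5 nearest patterns, and 2 to 4 genes of smallest adjusted p per marker list (fewer are printed for some lists). The genes and lists were chosen with earlier results of these data known. Precision is limited by the 3 arrays.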

Additional observations from a re-analysis of the deposited data

How the results depend on the processing

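Results were recomputed in 12 other settings: another background correction (processed signals, none, or an offset of 16), median centring or bin medians in place of or after loess, no or a stricter filter, a trend with robust variances, 1 probe per gene, and without each array in turn. With the processed signals 1436 probes were called, with 2 of the retinoic acid probes (Aldh1a3 and Cyp26b1), 5 of the pathway probes and 8 of the marker probes (27 in the fit reported). With 1 probe per gene 5 of 10 retinoic acid probes were called, of the same genes as in the fit reported. Without 1 array the counts ran from 2195 to 5734 for all probes, 6 to 8 for retinoic acid probes, 6 to 17 for pathway probes and 18 to 33 for marker probes. Of 164 values of single retinoic acid probes 148 kept direction and side of the threshold, 12 lost the call, 1 (Rxrb, median centring) gained it and 3 reversed: Rarg was -0.0090 without array 1, -0.0033 without array 3 and 0.084 without array 2, and Rxrb was -0.0088 without array 1 and at most 0.16 without another. With an offset of 16 the first Rxrg probe (1.31) lost its call, and with a trend and robust variances it and the first Rarb probe (0.92) did. Median centring moved the median of all probes to 0.07, from which its ratios are to be read. Leaving out probes named only in the authors' deposited table, chosen after seeing the data, gave 7 retinoic acid and 12 pathway calls. The cause of these differences was not tested. Every setting used the arrays whose results were known when the genes and lists were chosen. Calls kept or lost here and above thus describe dependence on the processing and on single arrays, and do not rank the genes by evidence. A fit with the slide as a block was not run because all arrays carry slide number 1. The fit is already paired, because each array holds 1 pair and gives 1 ratio, so no separate paired analysis was run.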
